A study of Mus musculus with 22 samples.

Results

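IGHV13-2 and IGHV15-2 are variable (V) segments of the mouse immunoglobulin heavy chain locus. They were selected on a measured value, their share of the repertoire, which was lower outside than inside the vessels of PBS-treated kidneys. Members were all deposited sequences whose first V name, with the allele dropped, was either of the 2 segments. This gave 467 of 17178 sequences, of which 253 carried IGHV13-2 and 214 carried IGHV15-2. They formed 326 of 6588 clonotypes, a clonotype being 1 combination of V segment, J segment and junction nucleotides. The members held 2686 of 123192 reads. IGHV13-2 was found in all 22 libraries and IGHV15-2 in 19 of 22.

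The libraries came from wild-type C57BL/6 female mice aged 8 to 10 weeks, whose bladders were inoculated with uropathogenic Escherichia coli (UPEC, 5 mice) or with PBS (6 mice). At day 56, kidney B cells were sorted by an anti-CD45 antibody injected into the blood shortly before death. Cells that the antibody had not reached were taken as extravascular and labelled cells as intravascular, so each mouse gave 2 libraries of the same kidney. Libraries held between 750 and 2134 sequences (PBS extravascular), 344 and 611 (PBS intravascular), 244 and 1102 (UPEC extravascular), and 347 and 938 (UPEC intravascular). The files hold no transcripts other than Igh, so the sorted cell type could not be checked against other marker genes.

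A heavy chain variable domain is assembled in each developing B cell by joining a V, a D and a J segment. Trimming and untemplated addition of nucleotides at the joins make the junction, which codes for the third complementarity-determining region (CDR3) and its conserved flanking residues. Naive follicular B cells express the same variable domain with the Ighm and the Ighd constant region by alternative splicing, whereas B-1 cells carry little IgD, and somatic hypermutation after activation adds substitutions to the V segment.

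Both segments lie on the minus strand of chromosome 12 in GRCm38 (RefSeq annotation), IGHV13-2 at chr12:114357761-114358060 and IGHV15-2 at chr12:114564578-114564874. The germline V regions are shown because the mismatches described later are counted from their first base, 5′ to 3′ on the coding strand. Capitals mark the last 9 bases, with which the junction starts.

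IGHV13-2: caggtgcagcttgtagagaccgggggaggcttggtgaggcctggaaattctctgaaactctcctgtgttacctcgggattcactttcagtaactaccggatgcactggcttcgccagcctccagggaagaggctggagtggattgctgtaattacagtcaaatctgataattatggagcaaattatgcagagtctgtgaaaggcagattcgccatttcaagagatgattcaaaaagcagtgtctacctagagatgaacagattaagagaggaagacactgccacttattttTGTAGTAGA

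IGHV15-2: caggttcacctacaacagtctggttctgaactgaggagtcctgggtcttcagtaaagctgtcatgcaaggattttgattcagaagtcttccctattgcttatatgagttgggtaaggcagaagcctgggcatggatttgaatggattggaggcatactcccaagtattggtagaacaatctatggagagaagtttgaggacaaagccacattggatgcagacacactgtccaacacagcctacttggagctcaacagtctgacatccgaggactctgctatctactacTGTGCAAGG

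The largest clonotypes of the segments carried the following junctions, in which capitals mark the part assigned to the D segment. They are the largest of their segment and compartment, apart from IGHV13-2 inside the vessels, where none exceeded 3 sequences.

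IGHV13-2 PBS 6 extravascular: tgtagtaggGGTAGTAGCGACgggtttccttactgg
IGHV15-2 PBS 2 extravascular: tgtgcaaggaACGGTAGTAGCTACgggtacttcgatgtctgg
IGHV15-2 UPEC 5 intravascular: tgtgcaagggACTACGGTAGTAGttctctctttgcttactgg

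The shares of both segments in PBS mice chose the members and are given as a description. IGHV13-2 made up 0.0469% of the extravascular sequences in PBS mouse 1, 0.562% in mouse 2, 0.0585% in mouse 3, 0.449% in mouse 4, 0.533% in mouse 5 and 4.01% in mouse 6. Its intravascular share was 6.72%, 5.74%, 3.21%, 2.19%, 2.33% and 0.982% in the same order. The extravascular share was the lower one in 5 of 6 mice, and mouse 6 went the other way. The lowest share rested on 1 of 2134 sequences (95% Wilson interval 0.00827% to 0.265%) and the highest extravascular share on 46 of 1148 (3.02% to 5.30%). These intervals cover counting error only, since reads amplified by PCR are not independent molecules.

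IGHV15-2 was not found among the 2134 extravascular sequences of PBS mouse 1, which allows a share of up to 0.141%. In mice 2, 3 and 4 its extravascular share was 1.69%, 0.117% and 0.225%. It was again not found in the 750 sequences of mouse 5 (up to 0.400%) and was at 0.523% in mouse 6. The intravascular shares were 0.690%, 4.24%, 2.01%, 1.97%, 4.36% and 0.982%, so the extravascular share was lower in 6 of 6 mice. The mean paired difference was -2.59 ± 3.36 percentage points for IGHV13-2 (SD, n = 6) and -1.95 ± 1.42 for IGHV15-2. In bulk libraries, fewer cells that use a segment and less Igh RNA per such cell cannot be told apart.

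The contrast across V segments that named the members was made in PBS mice. The rule itself names no treatment, so the shares of UPEC mice and every comparison of shares between treatments are also given as a description, with no test. IGHV13-2 made up 4.10%, 0.583%, 0.817%, 0.942% and 0.936% of the extravascular sequences of UPEC mice 1 to 5. Its intravascular shares were 0.279%, 3.17%, 1.90%, 0.959% and 4.51%. The compartments overlapped, with mouse 1 opposite to the others and mouse 4 nearly level. The extravascular share was lower in 4 of 5 mice, with a mean difference of -0.688 ± 2.87 percentage points (SD, n = 5). This direction rested on single mice and on the weighting, with -1.81 without mouse 1, 0.0339 without mouse 5 and 0.417 when weighted by reads.

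IGHV15-2 was not found in the 244 extravascular sequences of UPEC mouse 1, which allows up to 1.23%. Its extravascular share was 0.437%, 0.635%, 1.35% and 2.57% in mice 2 to 5, against intravascular shares of 2.51%, 6.92%, 3.1%, 0.640% and 5.31% in mice 1 to 5. Again 4 of 5 mice were lower in the extravascular library, the exception being mouse 4. The mean difference was -2.70 ± 2.55 percentage points (SD, n = 5), from -3.55 without mouse 4 to -1.75 without mouse 2. For both segments together it was -3.38 ± 4.46, lower in 3 of 5 mice. Leaving out 1 mouse took this value from -4.56 (without mouse 1) to -1.96 (without mouse 2).

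**Figure D1:**
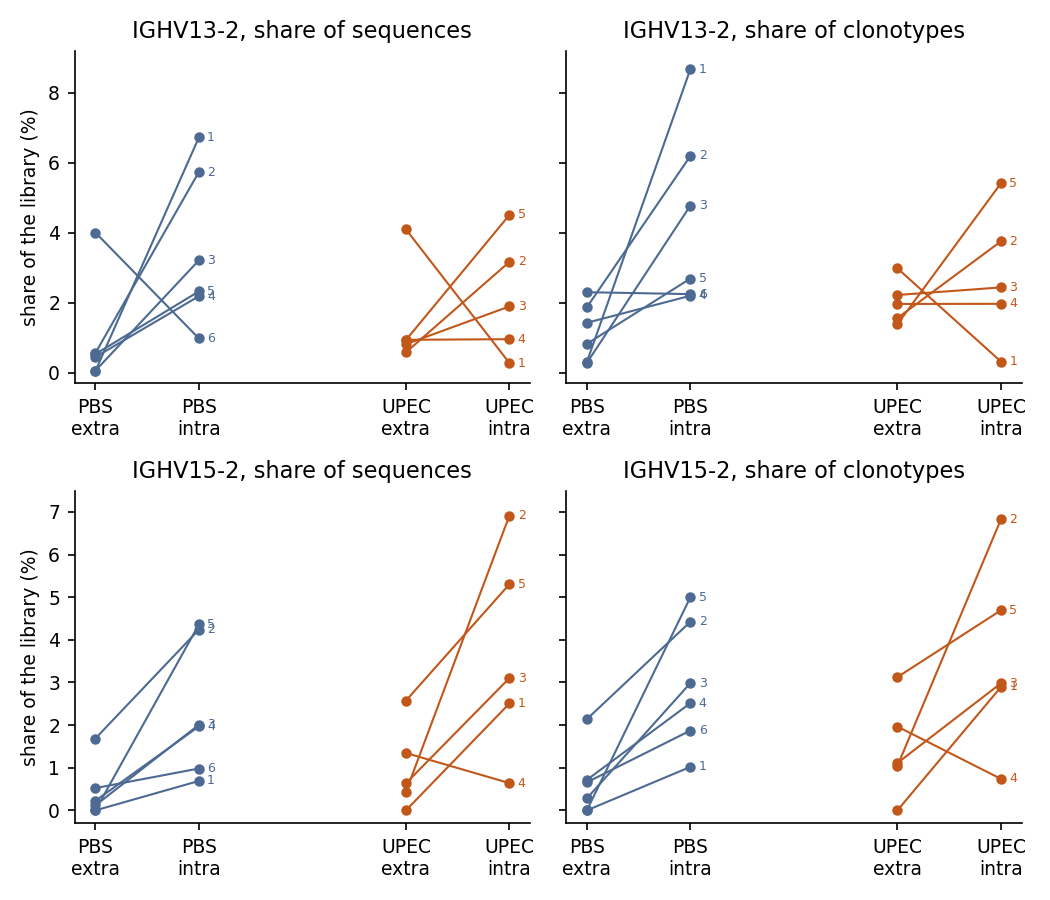
Share of IGHV13-2 (top) and IGHV15-2 (bottom) in each library, as a percent of sequences (left) and of clonotypes (right). Each line joins the extravascular and the intravascular library of 1 mouse, numbered as in the text. The lines of PBS mice (blue) rise towards the intravascular library except for IGHV13-2 in mouse 6, and those of UPEC mice (orange) rise less uniformly.

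The compartment difference was 1.90 percentage points higher in UPEC than in PBS mice for IGHV13-2 and lower for IGHV15-2 (-0.746). For IGHV13-2 this value ran from 0.771 without UPEC mouse 1 to 3.02 without PBS mouse 6. For IGHV15-2 it turned to 0.200 without UPEC mouse 2. The PBS side of these values is the gap for which the segments were picked.

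Within a compartment, the mean extravascular IGHV13-2 share was 1.48% ± 1.47 (SD, n = 5) in UPEC and 0.943% ± 1.52 (SD, n = 6) in PBS mice. All 5 UPEC values lay above the 5 lower PBS values, and 4 of 5 lay below that of PBS mouse 6. The intravascular IGHV13-2 share was 2.16% ± 1.70 in UPEC and 3.53% ± 2.23 in PBS mice. IGHV15-2 went from 0.425% ± 0.647 in PBS to 0.998% ± 1.01 in UPEC extravascular libraries and from 2.37% ± 1.58 to 3.69% ± 2.45 in intravascular ones. The extravascular IGHV13-2 comparison turned on single mice, since the difference was 0.532 percentage points in all mice, 1.15 without PBS mouse 6 and -0.123 without UPEC mouse 1. The intravascular IGHV13-2 difference ran from -1.95 (without UPEC mouse 5) to -0.726 (without PBS mouse 1). For IGHV15-2 the extravascular difference of 0.573 fell to 0.180 without UPEC mouse 5, and the intravascular one of 1.32 ran from 0.514 (without UPEC mouse 2) to 2.08 (without UPEC mouse 4).

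When each clonotype counted once, IGHV13-2 took 1.17% of extravascular and 4.46% of intravascular clonotypes in PBS mice, as means over 6 mice, and 2.02% and 2.78% in UPEC mice. IGHV15-2 took 0.632% and 2.97% in PBS mice and 1.45% and 3.63% in UPEC mice. In UPEC mice the difference was -0.755 percentage points for IGHV13-2 (lower in 4 of 5) and -2.18 for IGHV15-2 (lower in 4 of 5). Single mice weighed on both, since leaving out 1 mouse took the former from -1.61 (without mouse 1) to 0.0627 (without mouse 5) and the latter from -3.03 (without mouse 4) to -1.28 (without mouse 2).

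To set these values against the other V segments, log2 shares of the 17 segments with enough sequences were fitted with limma, with the mouse as a block. In PBS mice 6 of 17 segments, or 35.3%, passed an adjusted p of 0.05, and 4 of them, or 23.5%, were lower in the extravascular compartment. The members were 2 of these 4, which repeats the contrast that chose them. The log2 difference was -2.72 (SE 0.94) for IGHV13-2 and -3.11 (SE 0.75) for IGHV15-2, given without a p for that reason. Without any 1 of PBS mice 1 to 5, by reads, or without the filter on rare segments, 0 segments were called by limma, while 3 to 13 had an unadjusted p under 0.05. The members' log2 differences in those settings ran from -3.04 to -2.04 for IGHV13-2 and from -3.71 to -2.50 for IGHV15-2, which passed the filter in all of them but the one without mouse 2. Shares sum to a whole, and the median over the 17 segments was itself -1.20, while IGHV11-2 and IGHV12-3, segments of phosphatidylcholine-binding B-1a cells, differed by 2.25 and 2.07. With the shares centred on the median of the segments, the members' values were -1.58 and -1.97. In that setting 3 of 17 segments were called, 0 of them lower in the extravascular compartment. IGHV3-5, just outside the threshold, had a lower estimate than either member, at -3.62 (SE 1.49).

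In UPEC mice limma called 0 of 17 segments (0%), and 3 had an unadjusted p under 0.05. The log2 difference of IGHV15-2 was -2.19 (SE 0.96) and that of IGHV13-2 was -0.42 (SE 0.96). The median over the 17 segments was -0.59, and 12 of 17 were below 0. IGHV13-2 thus lay near the middle of the segments, and 2 of 17 segments had a lower value than IGHV15-2. Over the alternatives in which it passed the filter, the log2 difference of IGHV15-2 ranged from -3.15 to -1.47. That of IGHV13-2 ranged from -1.42 to 0.11, and no call of a member is read.

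**Figure D2:**
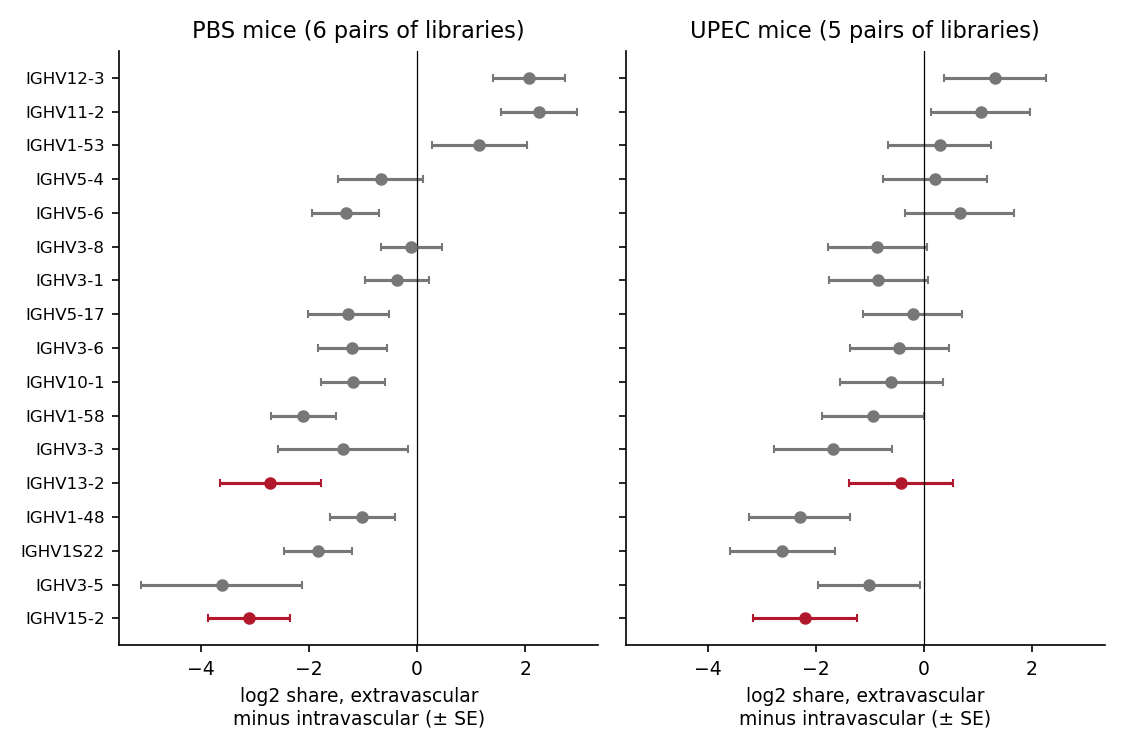
Difference in log2 share between the extravascular and the intravascular library (limma estimate, bars ± 1 SE) for each of 17 V segments in PBS mice (left, 6 pairs) and UPEC mice (right, 5 pairs). IGHV13-2 and IGHV15-2 are drawn in red. In PBS mice they lie at -2.72 and -3.11, and in UPEC mice at -0.42 and -2.19.

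Across the 22 libraries, the segments whose log2 share was most like that of IGHV13-2, among 18 segments, were IGHV5-6 (Pearson r = 0.686), IGHV3-5 (0.601) and IGHV5-17 (0.550). Those most like IGHV15-2 were IGHV1-58 (r = 0.807), IGHV1-48 (0.697) and IGHV3-6 (0.672). The members had an r of 0.485 with each other. The B-1a segment IGHV12-3 had an r of -0.682 with IGHV13-2 and -0.454 with IGHV15-2, and IGHV11-2 one of -0.267 and -0.498. These values describe 22 libraries of 11 mice, which share their depth and the sum of shares. They also use the shares by which the members were chosen. The sign of r with segments higher or lower outside the vessels thus follows in part from that choice.

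Most member clonotypes were single sequences, and the few large ones lay mainly outside the vessels. Of 82 extravascular member clonotypes, 57 (69.5%) had 1 sequence, against 216 of 246 (87.8%) intravascular ones. Among the clonotypes of all other V segments, 83% of extravascular and 83.1% of intravascular ones were single. The mean size of member clonotypes was 1.98 ± 1.33 sequences outside and 1.18 ± 0.147 inside the vessels (SD, n = 11 mice), higher outside in 8 of 11 mice, and the difference of 0.797 was 0.408 without PBS mouse 6. The clonotypes of the other V segments were also larger outside, at 3.59 against 1.54 sequences, and outside the vessels member clonotypes were the smaller ones in 9 of 11 mice. The sequence counts behind these sizes also make up the shares that chose the members, so sizes are given with no test. In the intravascular compartment member clonotypes were smaller than the others in 11 of 11 mice (1.18 against 1.54).

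The largest member clonotype, with 36 sequences and 283 reads, came from PBS mouse 6, outside the vessels, and made up 36 of its 46 IGHV13-2 sequences. Its most read sequence held 174 reads and 4 V substitutions, T84A, C179T, G236A and C247T, each written as the germline base, its position and the observed base. Of the 36 sequences, 32 carried all 4 substitutions, and 29 carried these and exactly 1 more, while 33 had only 2 to 4 reads. Whether the single extra substitutions arose in the cells or in amplification and sequencing was not tested.

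The largest IGHV15-2 clonotype, in PBS mouse 2, joined IGHD1-1 to IGHJ1 and held 17 of the 24 IGHV15-2 sequences of that extravascular library, with 144 of its 185 reads in 1 sequence. UPEC mouse 5 had an IGHV15-2 clonotype of 7 sequences in each compartment, with different junctions. The largest intravascular IGHV13-2 clonotypes had 3 sequences. Outside of PBS mice 2 and 6 and UPEC mouse 5, no member clonotype exceeded 4 sequences.

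**Figure D3:**
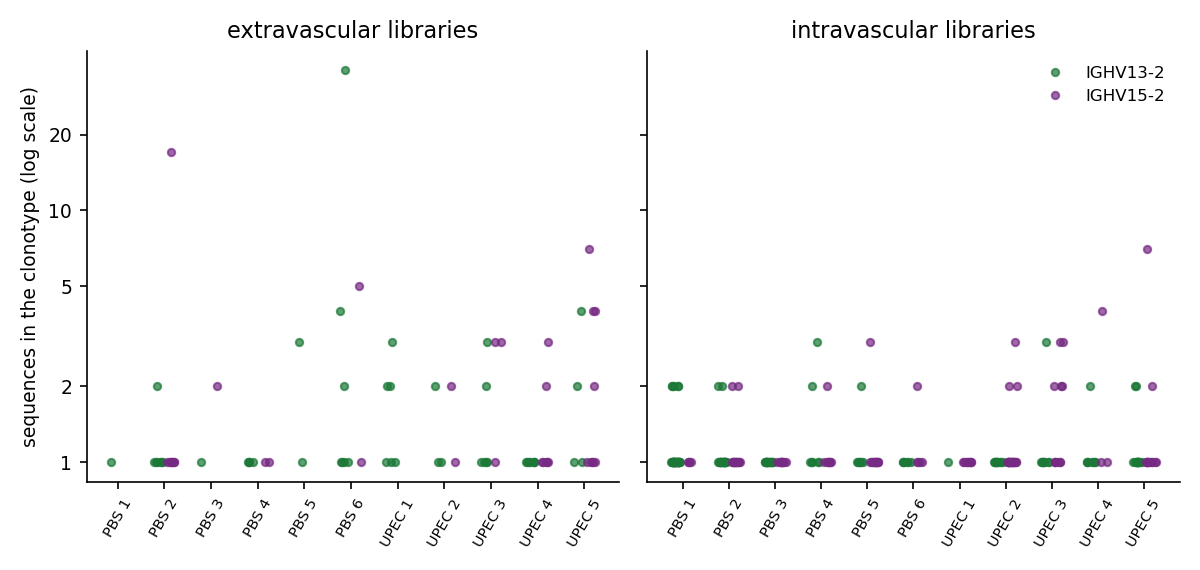
Number of sequences (log scale) in each member clonotype, by library, for the extravascular (left) and intravascular (right) libraries. Each point is 1 clonotype of IGHV13-2 (green) or IGHV15-2 (purple). The clonotypes of 36 and 17 sequences in PBS mice 6 and 2 stand apart from the rest, most of which are single sequences.

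IGHV13-2 with IGHJ3 recurred across mice with junctions of 36 nucleotides that carried a proline codon (CCT, in 1 case CCC) where germline IGHJ3 has an alanine codon. This set was chosen after its values were seen and is given without a test. It comprised 14 of 50 IGHV13-2 clonotypes with IGHJ3 (28.0%), against 10 of 1230 IGHJ3 clonotypes of the other V segments (0.813%), and 0 of 35 of IGHV15-2 among those. Merging junctions 1 nucleotide apart within a library left 12. The 14 were spread over 8 libraries of 5 mice, PBS mice 1, 3, 4 and 6 and UPEC mouse 4. IGHJ3 lies at chr12:113429085-113429132 on the minus strand of GRCm38 (GENCODE annotation). The codon concerned is in capitals in its germline sequence and in the junctions that are most alike between libraries.

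IGHJ3: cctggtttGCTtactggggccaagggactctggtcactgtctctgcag
PBS 1 intravascular: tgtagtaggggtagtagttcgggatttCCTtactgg
PBS 3 intravascular: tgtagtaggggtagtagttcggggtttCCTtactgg
PBS 4 extravascular: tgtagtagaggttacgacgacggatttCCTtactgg
PBS 4 intravascular: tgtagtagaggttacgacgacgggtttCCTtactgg
PBS 6 extravascular: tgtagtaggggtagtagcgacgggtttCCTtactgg
PBS 6 extravascular: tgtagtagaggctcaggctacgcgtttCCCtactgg
PBS 6 intravascular: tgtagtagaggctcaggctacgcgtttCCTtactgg
UPEC 4 extravascular: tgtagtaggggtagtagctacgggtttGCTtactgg
UPEC 4 intravascular: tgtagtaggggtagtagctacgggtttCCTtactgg

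Counted from the first base of IGHJ3, all 14 carried G9C, and the CCC form of PBS mouse 6 also carried T11C. IGHD1-1 was assigned in 9 of 14, IGHD2-2 and IGHD2-12 in PBS mouse 4, and IGHD3-2 in PBS mouse 6. UPEC mouse 4 had the same junction with and without G9C, in different compartments. These junctions made up 44 of 102 extravascular IGHV13-2 sequences (43.1%), in 6 clonotypes of 3 libraries. Of these 44, 42 came from PBS mouse 6, and PBS mice 1 and 4 gave 1 each. Inside the vessels the junctions made up 11 of 151 sequences (7.28%), in 8 clonotypes of 5 libraries. By clonotype they were 6 of 48 IGHV13-2 clonotypes outside and 8 of 135 inside the vessels. Without them the extravascular IGHV13-2 share of PBS mouse 6 was 0.362% and its intravascular share 0.820%.

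The same sequences held most of the V substitutions of IGHV13-2. They had a median of 5 mismatches to germline (range 0 to 11), and 5 of 54 aligned sequences had none. Most of the 54 belonged to the clonotype of 36 sequences in PBS mouse 6, so this median largely describes that clonotype. The intravascular ones had a median of 3. Counting each clonotype once, the mean was 4.13 outside and 4.23 inside the vessels. In the other IGHV13-2 clonotypes it was 0.302 and 0.122. Of the other IGHV13-2 sequences, 183 of 194 had none. Every sequence was mismatched in 11 of 14 recurrent clonotypes but in 5 of 169 other IGHV13-2 clonotypes. Some substitutions were shared between mice, among them C155A in 6 clonotypes of 4 mice, C179T in 7 of 3 mice, A91G in 4 of 3 mice and T285G in 3 of 3 mice. The C155A clonotypes included 2 of UPEC mouse 4 that kept the germline GCT codon. The PBS 1 and PBS 3 intravascular junctions printed above, 1 nucleotide apart, both carried A91G, G138A, C155A, T168G, C179T and T285G. Whether similar sequences in different mice arose separately or passed between libraries in processing was not tested, and differences of the mice from GRCm38 would also count as mismatches.

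**Figure D4:**
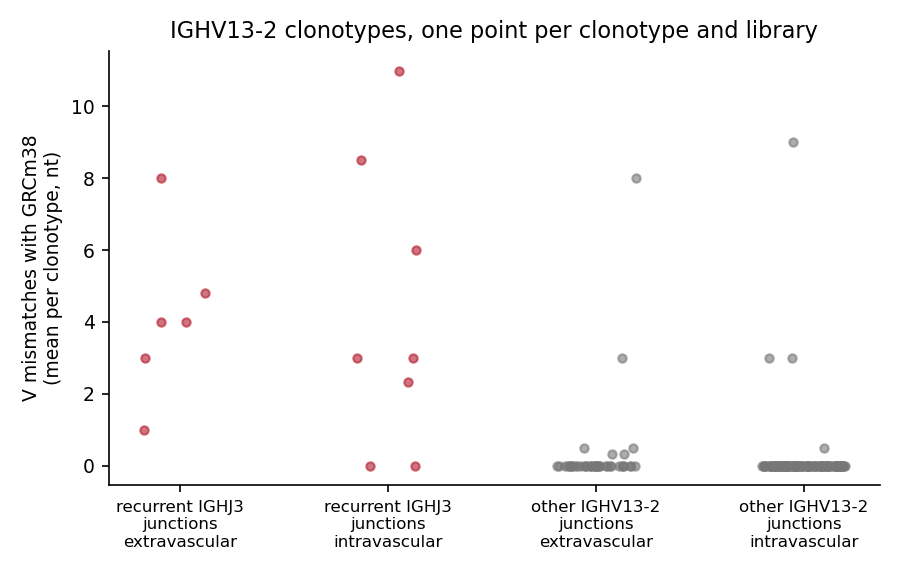
Mismatches of the V segment with germline IGHV13-2 of GRCm38 (nucleotides, mean per clonotype and library). Each point is 1 clonotype in 1 library, split into the recurrent IGHJ3 junctions (red) and all other IGHV13-2 junctions (grey), by compartment. The recurrent clonotypes reach 11 mismatches, whereas most of the others lie at 0.

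Sharing of identical clonotypes was rare. Of 326 member clonotypes, 2 were found in more than 1 library and 0 in more than 1 mouse, against 89 and 49 of 6262 other clonotypes. Both shared clonotypes used IGHV13-2 and lay in the 2 compartments of UPEC mouse 4, with 1 sequence in each library and no V mismatch.

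IGHV13-2 UPEC 4 extravascular: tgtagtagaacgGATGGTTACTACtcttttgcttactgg
IGHV13-2 UPEC 4 extravascular: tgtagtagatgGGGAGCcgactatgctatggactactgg

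The former joined IGHD2-3 to IGHJ3 and the latter IGHD1-1 to IGHJ4. Among pairs of an extravascular and an intravascular member clonotype with the same V, J and length, 6 of 49 pairs from the same mouse and 2 of 369 pairs from different mice differed by at most 1 nucleotide. At 2 nucleotides the counts were 6 and 6. No member junction was found with another V segment, although 126 of 6443 junctions in all were. By amino acids, 2 of 319 member combinations of V, J and CDR3 were found in 2 mice each, with different nucleotides. These were PBS mice 1 and 3 and UPEC mice 2 and 5, all inside the vessels.

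Of 15 measures tested between the compartments over 11 mice, only the share of IGHJ2 passed the adjusted test, and this call did not hold in most other settings. IGHJ2 was used by 0%, 20.0%, 0%, 33.3%, 0% and 11.1% of the extravascular member clonotypes of PBS mice 1 to 6, and by 16.7%, 0%, 22.2%, 0% and 7.69% of those of UPEC mice 1 to 5. The intravascular values were 21.1%, 19.4%, 34.6%, 40.0%, 25.0% and 18.2%, and 20.0%, 19.4%, 25.0%, 9.09% and 25.0%. Some of these libraries held few member clonotypes, with 1 outside the vessels of PBS mouse 1 and 2 in each of mice 3 and 5. So few clonotypes often give 0% at either rate, and these libraries count as lower in the test. The mean was 10.1% outside and 23.3% inside the vessels, 13.2 percentage points apart and lower outside in 10 of 11 mice (exact signed-rank p = 0.00195, adjusted over 15 measures 0.0293, and 0.0273 over 14 without clonotype size). The change was larger than that of the other V segments, by -13.9 percentage points (exact p = 0.00195, adjusted 0.0293, 10 of 11 mice). It was not called in the 8 mice with at least 3 member clonotypes in both compartments (-8.13 percentage points, exact adjusted p = 0.234) or in each segment alone. Leaving out any of 9 of the 11 mice, all but PBS mice 2 and 4, also took the exact adjusted p to 0.0586.

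In the pooled clonotypes IGHJ1 was used by 20 of 34 extravascular (58.8%) and 40 of 111 intravascular (36%) clonotypes of IGHV15-2, and IGHJ2 by 4 and 30 of these. IGHV13-2 was spread more evenly, with 12, 6, 16 and 14 of 48 extravascular clonotypes on IGHJ1 to IGHJ4 and 33, 28, 35 and 39 of 135 intravascular ones. IGHD1-1 was the leading D partner of both, in 37.5% of extravascular and 40.7% of intravascular IGHV13-2 clonotypes and in 52.9% and 50.5% of those of IGHV15-2. Among all other V segments it was assigned in 31.6% and 32.2%.

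In the intravascular libraries 5 of 14 measures, clonotype size left out, differed between member clonotypes and those of the other V segments. Shares of D families are parts of 1 whole, and so nearly are the isotype shares given below, so the 5 are not independent. The IGHD1 family was used more often, 47.5% against 35.1% (higher in 10 of 11 mice, exact p adjusted over 14 measures 0.00911), and the IGHD2 family less often, 33.5% against 41.5% (lower in 10 of 11 mice, exact adjusted p = 0.0171). Neither member stood at the end of the range, since the IGHD1 share ran from 14.3% to 51.6% (IGHV1S22) over the 24 segments with at least 20 intravascular clonotypes, with IGHV1-48 and IGHV15-2 both at 51.4% and IGHV13-2 at 45.9%. IGHJ2 was used by 23.3% against 31.3% (lower in 9 of 11 mice, exact adjusted p = 0.0383). Here too other segments lay lower, down to 2.33% in IGHV11-2, with IGHV15-2 at 27.0% and IGHV13-2 at 20.7%, ranks 15 and 17 of 24 from the highest. With clonotype size included, 6 of 15 measures were called in all mice and 4 in each segment alone. Without PBS mouse 6, UPEC mouse 2 or UPEC mouse 4 the count was 5. Of the calls in all mice, that of IGHJ2 lay nearest the threshold. The junction length was 42.0 ± 1.95 nucleotides for members and 42.1 ± 0.452 for others (SD, n = 11, exact p = 0.831). In the extravascular libraries junctions without inserted nucleotides, common in B cells made before birth, made up 0.606% of member and 8.36% of other clonotypes as means over mice, and 1.28% and 8.20% of the pooled clonotypes with a D segment. No test is read from this, since libraries with 1 to 6 member clonotypes mostly give 0% at either rate.

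Between the compartments, the junctions of member clonotypes were 40.2 ± 4.10 nucleotides long outside and 42.0 ± 1.95 inside the vessels (SD, n = 11, exact p = 0.413). The median junction of IGHV13-2 was 39 nucleotides outside and 42 inside the vessels, and that of IGHV15-2 was 45 in both. V mismatches averaged 0.390% ± 0.863 of aligned nucleotides outside and 0.0755% ± 0.0823 inside the vessels, higher outside in 8 of 11 mice (exact p = 0.147). The single extravascular member clonotype of PBS mouse 1 was at 2.94%, and without that mouse the extravascular mean was 0.135%.

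The isotypes were read from 9 read counts in each sequence identifier. The identifiers name the first field, Igha, and break off there, so the second field was read as Ighd, the sixth as Ighg2b and the ninth as Ighm from alphabetical order. This reading could not be checked in the files, and every isotype name other than Igha rests on it. Each member sequence had reads in a single field, and 459 of 467 lay in the second or the ninth.

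By sequence, the second field (Ighd) held 4 of 64 extravascular and 41 of 102 intravascular IGHV13-2 sequences of PBS mice, with 56 and 60 in the ninth (Ighm). In UPEC mice the second field held 12 of 38 and 23 of 49, with 25 and 24 in the ninth. For IGHV15-2 the second field held 10 of 34 and 30 of 61 sequences in PBS mice and 15 of 42 and 23 of 77 in UPEC mice, and all others lay in the ninth. The low PBS extravascular IGHV13-2 value includes the clonotype of 36 sequences in mouse 6, which lay in the ninth field. Of 7 member sequences in the sixth field (Ighg2b), 6 had the recurrent IGHJ3 junctions, from PBS mouse 6 and UPEC mouse 4. The remaining 49 of these 55 recurrent sequences lay in the ninth field and 0 in the second. Only 1 member sequence, an intravascular IGHV13-2 sequence of a UPEC mouse, lay in the Igha field.

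With each clonotype counted once, members were more often in the second field than the other V segments. Inside the vessels the share of member clonotypes with a second-field sequence was 39.5%, 66.7%, 46.2%, 33.3%, 50.0% and 45.5% in PBS mice 1 to 6 and 30.0%, 32.3%, 60.0%, 45.5% and 50.0% in UPEC mice 1 to 5. The clonotypes of the other V segments ranged from 14.0% to 27.7%, so the groups did not overlap. The means were 45.3% ± 11.4 and 19.4% ± 3.99 (SD, n = 11), higher in 11 of 11 mice (exact signed-rank p = 0.000977, the smallest that 11 pairs allow, adjusted over 14 measures 0.00684). The ninth field went the other way, 58.2% against 83.4%, lower in 11 of 11 mice (exact adjusted p = 0.00684). As 15 of 246 intravascular member clonotypes had both fields, this is nearly the complement of the second-field result and not a separate one. The members were not at the end of the range of V segments, since the second-field share ran from 0% (IGHV1-48) to 64.7% (IGHV5-17) over 24 segments with at least 20 intravascular clonotypes, with IGHV15-2 at 46.8% and IGHV13-2 at 46.7%.

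Outside the vessels the second-field share of member clonotypes was 36.1% ± 20.6 against 16.2% ± 8.47 (higher in 9 of 11 mice, exact p adjusted over 13 measures 0.0444, without clonotype size and junctions lacking inserts). It ran from 0% to 60.0% across libraries, and PBS mice 1 and 5, with 1 and 2 member clonotypes, were at 0%. Between the compartments the second field differed by -9.27 percentage points (exact p = 0.426) and the ninth by 18.6 (76.8% against 58.2%, higher outside in 10 of 11 mice, exact p = 0.0186, adjusted over 14 measures 0.130), and neither passed the adjusted test. The second-field difference lay in PBS mice (25.6% outside against 46.8% inside) and turned in UPEC mice (48.7% against 43.5%), and in IGHV15-2 alone it was 5.29 percentage points. Between UPEC and PBS mice, 0 of 30 comparisons of these measures passed an exact Mann-Whitney U test, adjusted or not (lowest adjusted p = 0.725). The extravascular second-field share was 48.7% ± 6.86 in UPEC and 25.6% ± 22.8 in PBS mice (exact p = 0.160).

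**Figure D5:**
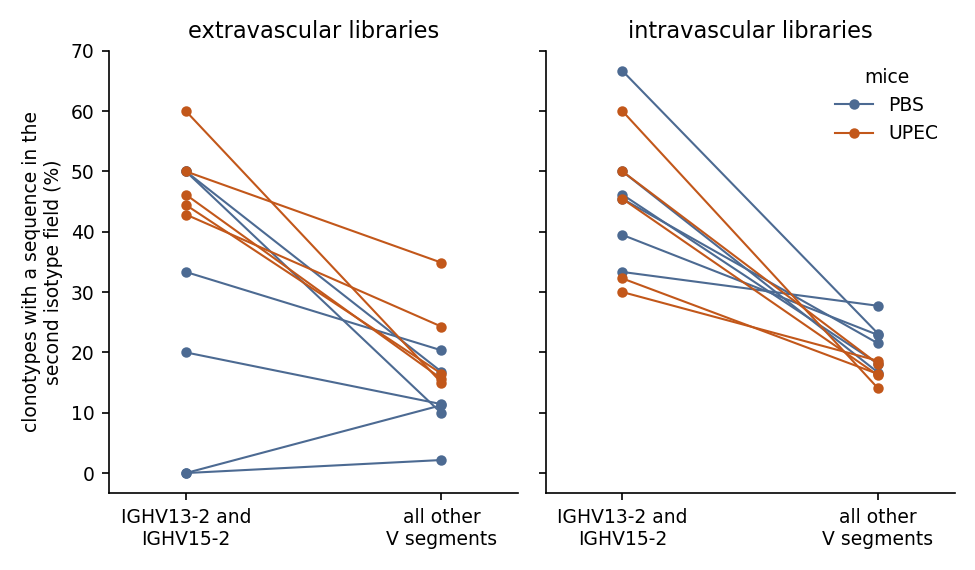
Percent of clonotypes with a sequence in the second isotype field (Ighd by alphabetical order) for the members and for all other V segments, in extravascular (left) and intravascular (right) libraries. Each line is 1 mouse (PBS blue, UPEC orange). Inside the vessels every line falls from the members to the other segments, and outside the vessels 9 of 11 do.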

How the data were processed

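Igh sequences of sorted kidney B cells were taken from 22 deposited tables, 1 per library. The authors filtered MiSeq reads with QUASR, merged pairs, required consensus within barcodes, matched the constant region to IMGT, kept sequences similar to V and J genes with 2 or more reads, and named their segments with IMGT/V-QUEST. As deposited, the values are text, segment names, positions and read counts, with no normalization. How the removal of single reads acts at different depths was not tested.

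From these, shares, clonotypes and junction measures were computed in Python 3.11.15 (pandas 2.3.3, scipy 1.17.1). Compartments were paired within mice, since both libraries came from 1 mouse, and compared by exact two-sided signed-rank tests. Treatments were compared by exact Mann-Whitney U tests or label permutation, with Benjamini-Hochberg adjustment. Tests of member shares and clonotype sizes were run but are not read, since these values share the sequence counts that chose the members. Log2 shares of V segments with at least 10 sequences in at least 3 libraries, with a prior of 0.5 sequences scaled to the library, were fitted with limma 3.58.1 in R 4.3.3. In simulated PBS libraries with 4 segments changed by 3 on the log2 scale this fit recovered 71.5%, false calls made up 13.3%, and 6 of 50 unchanged simulations gave calls. For UPEC these were 63.5%, 11.2% and 2 of 50. The noise between mice and between libraries in these simulations was assumed and not estimated from the data. The rates therefore do not give the power of the fit at the spread of the real libraries. V mismatches were counted against GRCm38 over at least 100 nucleotides, up to 15%. A total of 24 member sequences could not be aligned. Proteins were not analysed here.

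Members and lists were chosen with earlier results of these data known. Named were the 2 segments, the 3 V segments most like each, IGHV11-2 and IGHV12-3 as a reference, segments just outside a threshold or at the end of a range, the largest clonotypes and those in more than 1 library. The recurrent IGHJ3 junctions, the comparison with other V segments outside the vessels, the treatment comparison of the measures, the adjustment without clonotype size, clonotype shares with a mouse left out, counting each V-D-J region once, merging junctions and leaving out the largest clonotypes were added after the data were seen. Other settings tried covered weighting, the denominator, reads, pairing, prior, filter, centring, clonotype definition and each mouse left out.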

Additional observations from a re-analysis of the deposited data

Results flagged for a closer look

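In 4 of 24 groups of libraries 1 mouse stood apart from the others by Dixon's criterion, a criterion that chance meets in about 1 in 20 groups. The groups overlap, since sequence and clonotype shares come from the same libraries, and the PBS shares took part in choosing the members, so the count is a description. The IGHV13-2 share of PBS extravascular sequences was 4.01% in mouse 6, against 0.562% in the next highest. Of its 46 sequences 36 belonged to 1 clonotype, and by clonotype the share of that mouse was 2.30% outside and 2.25% inside the vessels.

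The IGHV13-2 share of UPEC extravascular sequences was 4.10% in mouse 1, against 0.942% in the next highest, and rested on 10 of 244 sequences in the shallowest library (95% Wilson interval 2.24% to 7.38%). Its 6 clonotypes had at most 3 sequences each.

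The IGHV15-2 share of PBS extravascular sequences was 1.69% in mouse 2, against 0.523% in the next highest, and 17 of its 24 sequences were 1 clonotype. The share of clonotypes was also apart in that mouse, at 2.14% against 0.714%, with 8 clonotypes of 374.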

How the results depend on the processing

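Weighted by reads, the UPEC compartment difference of IGHV13-2 turned to 0.417 percentage points, and its limma value to 0.11. The UPEC minus PBS difference of both segments inside the vessels, -0.0458 percentage points, turned to 0.900 by reads, 0.139 without IGHV11-2 and IGHV12-3 in the denominator, 0.0168 with each V-D-J region counted once and 0.240 without the recurrent IGHJ3 junctions. The treatment difference of the IGHV15-2 gap turned to 0.160 by clonotype, 0.293 with 3 or more reads and 0.409 with junctions merged. Without the recurrent junctions the extravascular UPEC minus PBS difference was 1.17 for IGHV13-2 and 1.74 for both segments, with no test read, since the PBS shares took part in the choice of members and the junctions, chosen after seeing the values, carry most of the share of PBS mouse 6. The cause of these changes was not tested.

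Of 17 V segments in PBS mice, 6 were called, and 0 of 72 without a filter (13 at an unadjusted p under 0.05), 0 of 29 by reads (6 unadjusted) and 3 with median centring. Of the 15 measures compared between compartments by exact signed-rank tests, 0 were called in PBS or UPEC mice alone (1 and 0 at an unadjusted p under 0.05), where 6 and 5 pairs allow no p under 0.0312 and 0.0625, in IGHV13-2 or IGHV15-2 alone (1 and 0), with at least 3 clonotypes (2) and with junctions merged (3). Between members and others inside the vessels 0 were called in PBS or UPEC mice alone (6 and 0 unadjusted), under the same bounds. The counts of 0 within a treatment say nothing of stability, and all these counts include clonotype size, whose own test is not read. Junction length between compartments turned to 0.0855 nucleotides in UPEC mice, the Ighd difference to 5.15 in UPEC mice and 5.29 in IGHV15-2 alone, and the intravascular junction difference of members and others to 0.232 by sequence and 1.97 in IGHV15-2 alone.

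Leaving out each mouse in turn gave ranges of -0.123 to 1.15 percentage points for the extravascular UPEC minus PBS difference of IGHV13-2, 0.70 to 1.74 for both segments outside and -1.10 to 1.02 inside the vessels, -1.81 to 0.0339 for the UPEC gap of IGHV13-2, -1.60 to 0.200 for the treatment difference of the IGHV15-2 gap and -0.0226 to 2.57 for that of both. The PBS V calls ranged from 0 (without mouse 1, 2, 3, 4 or 5) to 5 (without mouse 6), with 3 to 8 at an unadjusted p under 0.05. The measures called between compartments, clonotype size among those counted, ranged from 0 to 3. The UPEC limma value of IGHV13-2 ran from -1.42 to 0.052 and the intravascular junction difference from -0.444 to 0.187.

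With no replicate block, that is without pairing libraries of a mouse, 7 V segments were called in PBS and 0 in UPEC mice. The members' log2 differences in PBS mice were -2.72 and -3.11 with and without the block, and no call is read from them. Extravascular libraries held as few as 1 or 2 member clonotypes.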
